A study of Xenopus laevis with 12 samples.

Results

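The genes described here encode the contractile machinery of muscle and the proteins that trigger, fuel and regulate it. They are all probe sets whose single gene symbol, without its .L or .S ending, begins with the stem of a myosin light or heavy chain, myozenin, myomesin, myosin-binding protein C, troponin, tropomyosin, tropomodulin, creatine kinase of the ckm group, alpha-actinin, muscle actin, calsequestrin, ryanodine receptor, voltage-gated calcium channel or nicotinic acetylcholine receptor, or is *ldb3*, *des*, *ttn*, *neb*, *atp2a1*, *pvalb*, *mef2a*, *mef2c* or *mef2d*. The rule used names and no measured value. It found 103 probe sets of 61 genes among the 15491 probe sets tested. Of these, 66 probe sets of 37 genes belong to striated (skeletal or cardiac) muscle, and the other 37 probe sets belong to non-muscle and smooth muscle forms (21), voltage-gated channels and neuronal receptors of other cells (7), the *mef2* regulators (4), tropomyosins made in both kinds of cell (3) and 2 genes, *mylip* and *tpmt*, that match by name alone. *X. laevis* is an allotetraploid frog, and the endings .L and .S mark the 2 copies that many of its genes have.

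In the frog embryo the first skeletal muscle forms in the paraxial mesoderm, which lies beside the notochord and segments into somites. The bHLH factors MyoD and Myf5 switch on the muscle programme there, and Mef2 proteins act with them. Each sarcomere is built from thick filaments of myosin, thin filaments of actin with tropomyosin and troponin, and Z-discs that anchor them, while close relatives of the same proteins build the actin cables and the cell cortex of every cell.

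RNA was measured on 12 arrays of *X. laevis* tissue at stage 15, an early neurula, 3 each of eye field (EF, which the labels call eye primordia), posterior neural plate (PNP), LE (lateral endoderm in the labels) and whole embryos. Each region sample pooled many small dissected pieces, EF was taken with the mesendoderm beneath it, LE came from the lateral flank, and per the study's methods the triplicates came from different days and females. A signal is given as log2 of the deposited intensity, so that a difference of 1 is 2-fold, and signals of different probe sets cannot be set against each other as amounts of RNA. The highest of 27 bacterial control probe sets on each array, between 2.10 and 2.77, served as the background ceiling, and 61.1% to 82% of the tested probe sets were above it on any 1 array. In these bulk samples fewer muscle cells and less muscle RNA per cell cannot be told apart.

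The labels were set beside marker genes. Apart from *six6*, the eye field genes below are on a list that the study chose partly for enrichment in EF. Most of the posterior and lateral endoderm genes are markers whose levels in these tissues it also reported. This is therefore not an independent check of the labels. All 6 eye field genes (*rax*, *pax6*, *six3*, *six6*, *lhx2*, *otx2*) had a higher signal in EF than in the whole embryo, and all 5 posterior genes (*hoxc6*, *tbxt*, *gdf3*, *cdx4*, *cdx1*) were higher in PNP. In LE, 2 of 5 genes of the lateral endoderm list were higher than in whole embryos and 3 did not pass, and LE also had the epidermal keratin *krt12.4* at 10.79 against 10.55 in whole embryos. PNP carried notochord transcripts, with 7 of 7 listed genes higher than in whole embryos, among them *not* at 7.85 against 3.81. Its summed epidermal signal was 87.7 to 114 against 6680 to 7570 in whole embryos on the linear scale. The part of these other tissues in the muscle values below was not tested.

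Transcripts of several skeletal muscle genes were measured above background in whole embryos at this stage and were lower in EF and LE at 1 or more probe sets. Among them were *myl1*, *mylpf*, *tnnt3*, *tnni2*, *cacng1*, *atp2a1*, *ckm* and *chrng*. In PNP the signals of *myl1.L*, *cacng1.L* and *chrna1.2.L* overlapped those of whole embryos, while *mylpf*, *tnnt3*, *tnni2*, *atp2a1*, *ckm*, *chrng* and *myl1.S* were lower there than in whole embryos. Not all probe sets of these genes agreed. In LE, the *ckm.L* set (log2 difference from whole embryos 0.28) and the *atp2a1.S* set (-0.30) with the highest mean signal of their gene did not pass. By the naming rule these are the sets that represent the 2 genes. That *atp2a1.S* set did not pass in PNP either (-0.13), and a further *tnni2.S* set passed in no region. Of the 66 striated probe sets, 21 were lower in EF than in whole embryos and 3 higher at an adjusted p under 0.05 (limma, Benjamini-Hochberg over all tested), or 31.8% and 4.55%, while 10.6% of all tested probe sets were lower and 8.83% higher. In LE, 19 were lower (28.8%) and 1 higher (1.52%), against 5.4% and 3.23% of all tested. In PNP, 12 were lower (18.2%) and 5 higher (7.58%), against 12.1% and 10.2%. The median log2 difference from whole embryos over the 66 came to -0.01 for EF, 0.09 for PNP and -0.09 for LE, beside 0.10, 0.07 and 0.04 over all tested. The lowest of the 4 group means was in LE for 31 of the 66, in whole embryos for 23, in EF for 7 and in PNP for 5. The same count was not made over all tested. Many of these probe sets lay near background, and only 36 of the 66 were above the ceiling on all arrays of at least 1 group, and 10 were above it on no array. RNA quality was read from control probe sets at the 2 ends of beta-actin: the log2 signal of the 3′ end minus that of the 5′ end was 0.68 to 1.79 in EF, 0.70 to 2.45 in LE, -0.53 to 0.81 in PNP and -0.88 to 0.80 in whole embryos. The same measure of the Gapd control ran from 2.57 to 3.6 in EF, 2.16 to 3.05 in LE, 2.55 to 4.13 in PNP and 2.86 to 3.26 in whole embryos, overlapping between all groups. The part of RNA quality in the lower muscle signals of EF and LE was not tested.

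The thick filament is made of myosin heavy chains with essential and regulatory light chains. *myl1.L*, an essential light chain of fast muscle, read 7.28, 8.24 and 7.89 on the 3 whole-embryo arrays, 8.06, 7.97 and 8.65 in PNP, 4.26, 4.53 and 3.86 in EF, and 2.48, 2.23 and 2.56 in LE. PNP and whole embryos overlapped, EF was below both on every array, and LE was below EF, above the ceiling on 2 of its 3 arrays. The log2 difference of EF from whole embryos was -3.58 ± 0.26 (SE, n = 3 per group, limma adjusted p = 1.59e-06), that of LE from whole embryos was -5.38, and EF was 16.1-fold below PNP (adjusted p = 3.26e-07). PNP minus whole embryos was 0.42 with a 95% interval of -0.13 to 0.98. A further 2 probe sets of *myl1.L* gave -0.25 and -0.18 for the same comparison, so all 3 placed PNP within its spread of whole embryos.

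The other copy of that gene differed in PNP. *myl1.S* read 3.80, 4.06 and 5.35 in PNP and 5.89, 7.28 and 6.44 in whole embryos. These groups did not overlap, and PNP was 4.38-fold lower (adjusted p = 0.00259). In EF it read 3.27, 3.78 and 2.81, which was 9.51-fold below whole embryos, and in LE it stayed under the ceiling on every array and was at least 18.6-fold below whole embryos. On each array the L signal minus the S signal was taken, and this gap was larger in PNP than in whole embryos by 2.56 (exact two-sided permutation p = 0.10, the smallest that 3 against 3 arrays allow). The gap did not overlap between PNP and whole embryos, and the same comparison of EF with whole embryos gave -0.33 (exact p = 0.30). For LE against whole embryos the gap differed by -0.68 with no overlap (exact p = 0.10), with the S copy under the ceiling in LE. The copies were chosen for this comparison after their values were seen, with 4 other genes and 6 comparisons each, and no p in that family could pass an adjustment. A probe set annotated to both copies of *myl1* read 7.63 to 8.73 in PNP and 8.10 to 9.13 in whole embryos.

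*mylpf.L*, the regulatory light chain of fast skeletal muscle, read 7.20, 8.43 and 7.34 in whole embryos, 5.66, 5.45 and 6.64 in PNP, 4.26, 5.29 and 3.94 in EF, and 2.37, 1.60 and 3.16 in LE. The groups formed 4 steps with no overlap between neighbours. PNP was 3.34-fold below whole embryos (adjusted p = 0.0197), a call lost without PNP replicate 1 or 2 or whole-embryo replicate 2. EF was 2.67-fold below PNP (adjusted p = 0.0478, lost without any 1 PNP array, EF replicate 1 or 3, LE replicate 1 or whole-embryo replicate 3) and 4.35-fold above LE (adjusted p = 0.00563).

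*myh8*, a heavy chain of developing skeletal muscle in mammals, had 3 probe sets that ordered the tissues differently. The first read 4.19, 6.17 and 4.91 in whole embryos against 3.80, 4.13 and 2.98 in EF and 2.77, 2.65 and 2.62 in LE, and it was 5.31-fold lower in LE than in whole embryos (adjusted p = 0.00659). The second read 2.52, 4.32 and 2.73 in whole embryos and 3.97, 4.12 and 4.83 in PNP, which overlapped, and PNP exceeded LE by 3.04-fold (adjusted p = 0.0231). In both, whole-embryo replicate 2 stood above the other whole-embryo arrays by more than 1 on the log2 scale. The call of the first in EF (2.74-fold lower than whole embryos, adjusted p = 0.042) was lost when any of 8 single arrays was left out.

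Chains named for the heart included *mylc2a*, *myh6* and *myl3*. *mylc2a*, named for an atrial regulatory light chain, has 6 probe sets, and the one with the highest signals read 3.10, 2.84 and 2.42 in whole embryos, 4.05, 4.89 and 4.16 in EF, 4.02, 3.74 and 5.45 in PNP and 4.09, 3.99 and 4.16 in LE. Each region lay above all whole-embryo arrays, by 2.99-fold in EF (adjusted p = 0.0106) and 3.07-fold in PNP (adjusted p = 0.00816), and by 2.45-fold in LE, which missed the threshold (adjusted p = 0.0516). A second probe set was higher in PNP alone, by 2.34-fold, and the other 4 passed in no comparison. *myh6.S*, a heavy chain of the heart, has 5 probe sets, and the one with the highest signals read 2.88 to 3.38 in whole embryos and 3.44 to 4.30 in the regions. Its signal in EF exceeded that in whole embryos 1.65-fold (adjusted p = 0.026), with 1.79-fold in PNP (adjusted p = 0.0108) and 1.64-fold in LE (adjusted p = 0.0486), and the EF call was lost without any 1 of 5 arrays and the LE call without any 1 of 8. Another was higher in PNP by 1.35-fold and a further one in EF by 1.5-fold, each lost without any 1 of 4 arrays. These 2 lay near background, with means of 2.47 in PNP against 2.04 in whole embryos, and 2.87 in EF against 2.29. Each was above the ceiling on 1 of 3 whole-embryo arrays. The ceiling itself was 2.10 to 2.24 on whole-embryo arrays and 2.26 to 2.77 on EF and PNP arrays. Both probe sets of *myl3*, an essential light chain of heart and slow muscle, read 1.95 to 3.05 over all arrays and were called in no comparison. Of the 8 measured genes on a list of heart and anterior lateral mesoderm markers, 4 were above the ceiling on all whole-embryo arrays, 4 on all LE arrays, 1 on all EF arrays and 1 on all PNP arrays. Their summed linear signal was 42.5 to 47.1 in EF, 39 to 44.3 in PNP, 49 to 64 in LE and 49.7 to 59.7 in whole embryos. None was higher in a region than in whole embryos at the threshold, and lower were *hand1* in EF (2.72 against 3.51, adjusted p = 0.0444) and *nkx2-5* in PNP and LE (2.11 and 2.15 against 3.02, adjusted p = 0.0136 and 0.0382). That is 1 of the 8 lower in each region, while 10.6%, 12.1% and 5.4% of all tested probe sets were lower in EF, PNP and LE. In EF and PNP this is near the share of all tested. *hand1* was at 4.20 in LE (adjusted p = 0.109 against whole embryos), and *nppa* and *tbx20* were under the ceiling on all arrays. The part of heart precursors in the values of the cardiac chains was not tested.

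**Figure D1:**
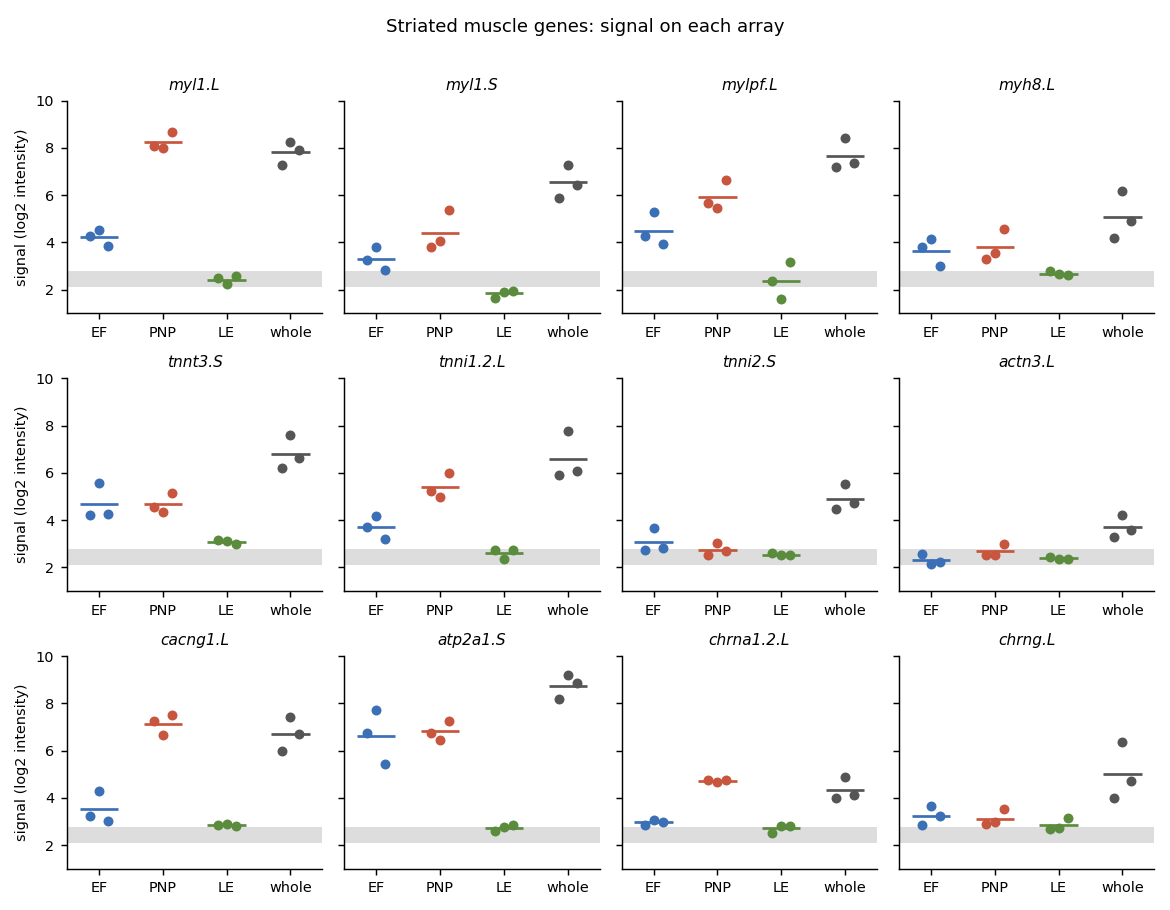
Signal (log2 intensity, y axis) of 12 striated muscle probe sets on each array (points), with the group mean (bar) for EF, PNP, LE and whole embryos (whole); the grey band spans the background ceiling, 2.10 to 2.77. PNP sits beside whole embryos for *myl1.L*, *cacng1.L* and *chrna1.2.L* and below it for *tnnt3.S*, *tnni2.S* and *atp2a1.S*, and LE lies in or near the band for most.

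On the thin filament, troponin T ties the troponin complex to tropomyosin and troponin I holds the filament off until calcium binds troponin C. *tnnt3.S*, the fast skeletal troponin T, read 6.20, 7.60 and 6.63 in whole embryos, 4.20, 5.56 and 4.28 in EF, 4.55, 4.33 and 5.13 in PNP, and 3.17, 3.10 and 2.98 in LE. EF and PNP overlapped each other and lay between LE and whole embryos. EF was 4.39-fold and PNP 4.41-fold below whole embryos (adjusted p = 0.00197 and 0.0017), and EF minus PNP was 0.01 with a 95% interval of -0.84 to 0.85. EF stood 3.02-fold above LE (adjusted p = 0.00901).

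*tnni1.2.L*, a troponin I gene named after the slow form, read 5.89, 7.78 and 6.10 in whole embryos, 5.23, 4.99 and 5.98 in PNP, 3.70, 4.18 and 3.18 in EF and 2.74, 2.36 and 2.74 in LE. The highest PNP array reached the whole-embryo range, and PNP minus whole embryos was -1.19 (adjusted p = 0.0698). EF was 7.47-fold below whole embryos (adjusted p = 0.00051) and 3.28-fold below PNP (adjusted p = 0.0126, lost without EF replicate 3 or PNP replicate 3). *tnni2.S*, the fast troponin I, read 4.49, 5.51 and 4.73 in whole embryos and no higher than 3.67 on any region array. It was 3.57-fold lower in EF, 4.49-fold in PNP and 5.17-fold in LE than in whole embryos, and its EF and PNP arrays overlapped. The second *tnni2.S* probe set read 2.73, 3.66 and 2.98 in whole embryos and 2.47 to 2.88 on the region arrays, with differences from whole embryos of -0.52 in EF, -0.45 in PNP and -0.62 in LE, none of which passed (adjusted p = 0.0863, 0.126 and 0.0749).

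*tnni1.S*, the slow troponin I itself, went the other way at low signal. It read 3.48, 3.08 and 3.13 in PNP and 2.13, 2.43 and 2.49 in whole embryos, and PNP was above every other array. PNP was 1.84-fold above whole embryos (adjusted p = 0.00224) and at least 1.88-fold above LE (adjusted p = 0.000939), where it stayed under the ceiling on all arrays. *tnnc2.S*, the fast troponin C, read 2.50, 3.21 and 2.98 in whole embryos, at least 1.38-fold above EF (adjusted p = 0.0115) and at least 1.31-fold above PNP (adjusted p = 0.000832). Of the 14 thin filament probe sets, 4 were lower in EF than in whole embryos, 3 in PNP and 4 in LE. These are 28.6%, 21.4% and 28.6%, beside 10.6%, 12.1% and 5.4% of all tested.

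*tpm1.L*, the alpha-tropomyosin gene, is spliced differently in muscle and other cells and was counted apart from the striated forms. It read 7.89, 9.75 and 8.65 in whole embryos, 6.36, 6.70 and 5.59 in EF, 5.95, 6.71 and 7.16 in PNP and 5.37, 4.89 and 5.44 in LE. No region array reached whole embryos, and even the LE arrays lay far above the ceiling. It was 5.84-fold lower in EF, 4.45-fold in PNP and 11.5-fold in LE than in whole embryos (adjusted p = 0.00137, 0.00383 and 0.000376). Both *tpm2* probe sets stayed at 2.50 or lower.

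Calcium reaches the filaments through channels and is pumped back into the sarcoplasmic reticulum. *cacng1.L*, the gamma subunit of the calcium channel of skeletal muscle, read 5.96, 7.41 and 6.72 in whole embryos, 7.26, 6.65 and 7.49 in PNP, 3.25, 4.31 and 3.01 in EF and 2.83, 2.90 and 2.81 in LE. PNP and whole embryos overlapped and both were above all EF and LE arrays. EF was 9.03-fold below whole embryos and 12.2-fold below PNP (adjusted p = 8.32e-05 and 1.97e-05), LE was 14.4-fold below whole embryos, and PNP minus whole embryos was 0.43 with a 95% interval of -0.38 to 1.25. The pore subunit *cacna1s* stayed at 2.23 or lower on all arrays.

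*atp2a1.S* encodes the pump that returns calcium to the sarcoplasmic reticulum of fast fibres. One of its probe sets read 8.17, 9.19 and 8.86 in whole embryos, 6.76, 7.71 and 5.44 in EF, 6.73, 6.44 and 7.26 in PNP and 2.59, 2.77 and 2.87 in LE. EF and PNP overlapped, both lay under whole embryos, and every EF array was far above LE. The fold below whole embryos was 4.28 in EF (adjusted p = 0.00595), 3.81 in PNP (adjusted p = 0.00877) and 63.9 in LE (adjusted p = 6.38e-06), and EF was 14.9-fold above LE (adjusted p = 4.19e-05). The other *atp2a1.S* probe set ran from 5.79 to 6.88 over all 12 arrays and differed from whole embryos only in EF, by 1.45-fold (adjusted p = 0.038, lost without any 1 of 6 arrays).

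**Figure D2:**
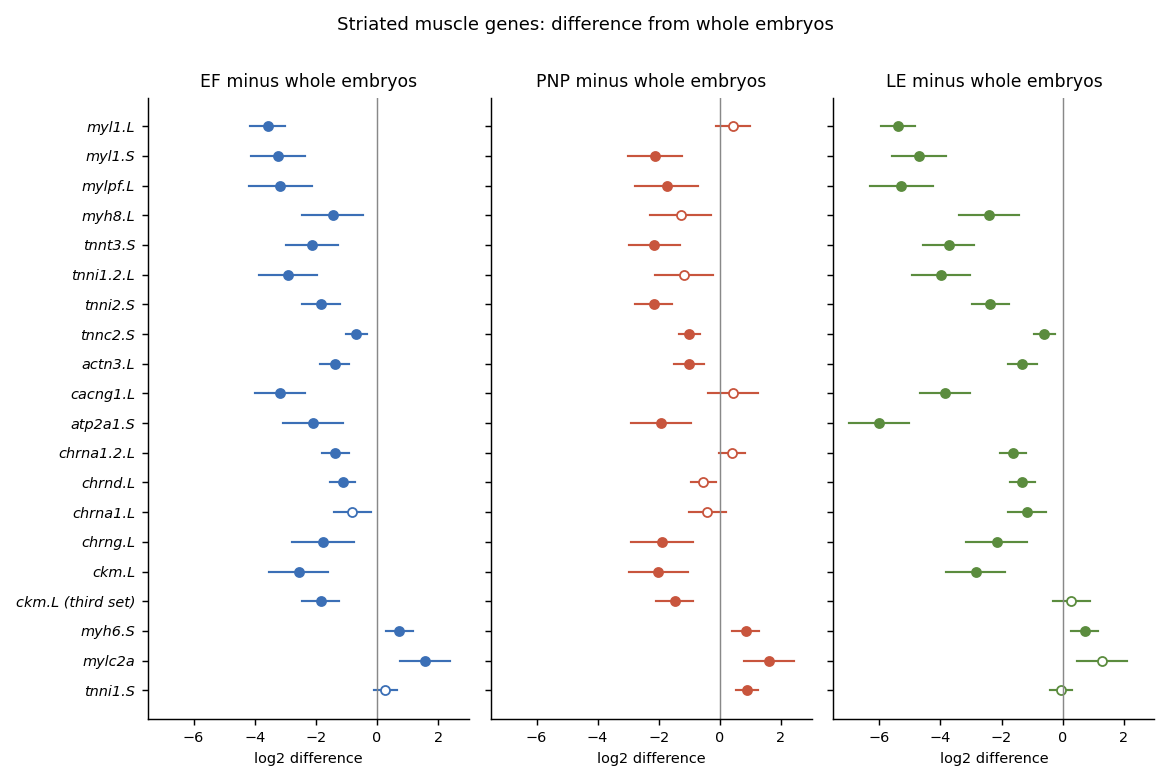
Log2 difference from whole embryos (x axis) of 20 striated probe sets in EF, PNP and LE, with 95% intervals from limma; filled points passed an adjusted p of 0.05 and open points did not. In PNP the intervals of *myl1.L*, *cacng1.L* and *chrna1.2.L* span 0, and in LE the *atp2a1.S* probe set drawn here lies farthest from whole embryos at -6.0. The other *atp2a1.S* probe set is not drawn.

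At the neuromuscular junction the acetylcholine receptor of the embryo is built from alpha, beta, gamma and delta subunits, and the epsilon subunit replaces gamma in the adult. *chrna1.2.L*, a second alpha gene, read 4.0, 4.89 and 4.12 in whole embryos, 4.73, 4.69 and 4.76 in PNP, 2.86, 3.07 and 3.00 in EF and 2.53, 2.81 and 2.82 in LE. PNP lay inside the whole-embryo range and the other regions lay below it. EF was 2.57-fold below whole embryos and 3.38-fold below PNP (adjusted p = 0.000417 and 3.93e-05). *chrng.L*, the embryonic gamma subunit, read 3.98, 6.38 and 4.70 in whole embryos, 2.86, 3.65 and 3.23 in EF, 2.88, 2.96 and 3.52 in PNP and 2.70, 2.73 and 3.15 in LE. The regions overlapped one another and lay below whole embryos, by 3.42-fold in EF, 3.73-fold in PNP and 4.47-fold in LE (adjusted p = 0.0176, 0.0109 and 0.0131). Whole-embryo replicate 2 was the highest array, and the 3 calls held without it, while that in EF was lost without EF replicate 1 and that in LE without LE replicate 2. *chrnd.L*, the delta subunit, was lower than in whole embryos at one probe set by 2.17-fold in EF (adjusted p = 0.00118) and by 2.5-fold in LE (adjusted p = 0.00103). At its other probe set the fold below whole embryos was 1.55 in EF and 1.53 in PNP, each call lost without any 1 of 4 arrays. *chrna1.L*, the first alpha gene, was 2.25-fold lower in LE alone (adjusted p = 0.0239, lost without any 1 of 5 arrays). The second probe set of *chrna1.2.L* passed in no comparison, and *chrnb1* and *chrne*, the adult epsilon subunit, stayed at 2.64 or lower.

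For the Z-disc, *actn3.L*, an alpha-actinin of fast fibres, read 3.29, 4.22 and 3.59 in whole embryos and 2.15 to 3.01 on the region arrays. It was 2.62-fold lower in EF, 2.01-fold in PNP and 2.5-fold in LE (adjusted p = 0.000735, 0.00577 and 0.0028). *ldb3.S*, which links Z-disc proteins in muscle, read 2.60, 4.38 and 2.38 in whole embryos and passed in no comparison. Its signal in whole-embryo replicate 2 was far above that of the other whole-embryo arrays. Of the 7 Z-disc and M-line probe sets, *actn3.L* was the 1 called in a comparison, lower in each region. This is 14.3%, beside 10.6%, 12.1% and 5.4% of all tested lower in EF, PNP and LE. For 5 of the 7, no group had all its arrays above the ceiling.

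*ckm* encodes the muscle creatine kinase, which buffers ATP. A pair of its probe sets carries the same cluster number, and the first of them read 4.80, 6.90 and 5.99 in whole embryos, 3.15, 3.52 and 3.36 in EF, 3.34, 3.76 and 4.54 in PNP and 3.52, 2.98 and 2.65 in LE. All region arrays lay below whole embryos, and the fold reached 5.88 for EF, 4.06 for PNP and 7.21 for LE (adjusted p = 0.00147, 0.00614 and 0.00192). At the second, 1 PNP array reached the whole-embryo range, and its 3.37-fold lower signal in PNP (adjusted p = 0.0219) was lost without PNP replicate 1 or 2 or whole-embryo replicate 2 or 3. The third *ckm.L* probe set read 7.73, 8.32 and 7.56 in whole embryos, 8.16, 8.34 and 7.94 in LE, 6.45, 5.42 and 6.20 in EF and 6.75, 6.05 and 6.38 in PNP. Here LE overlapped whole embryos, with a difference of 0.28 and a 95% interval of -0.32 to 0.88, and exceeded EF by 4.35-fold and PNP by 3.38-fold (adjusted p = 0.000116 and 0.000447). It was the only striated probe set that was higher in LE than in EF or PNP at the threshold. Which transcript each probe set reads was not tested.

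**Figure D3:**
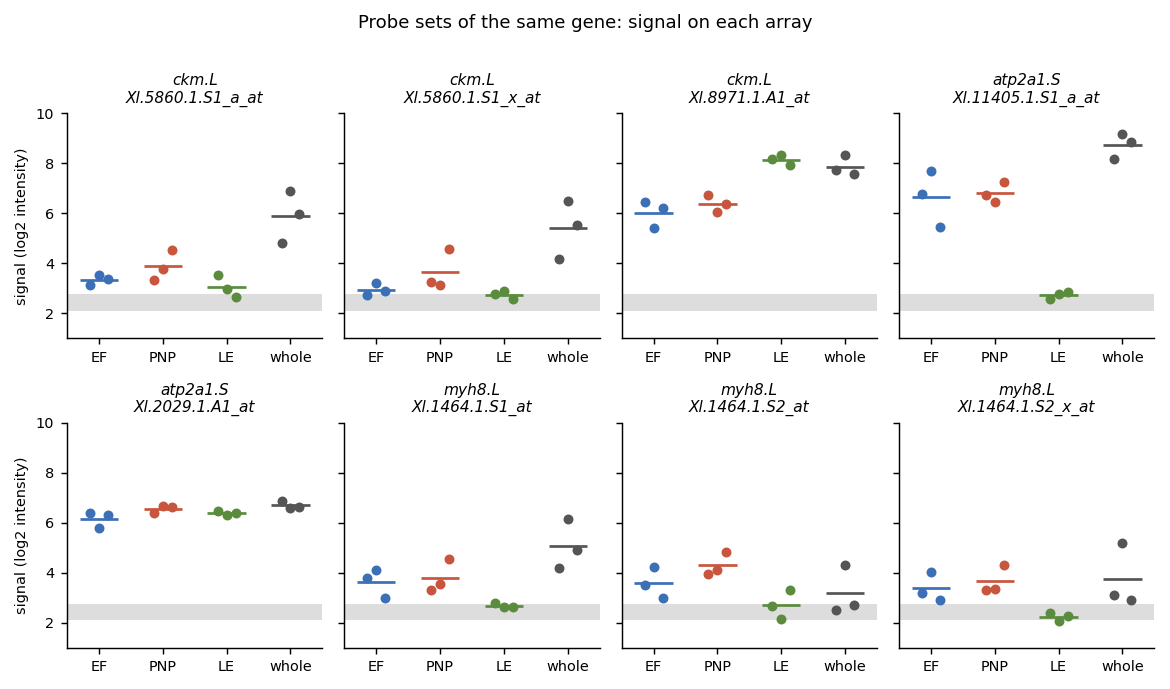
Signal (log2 intensity, y axis) on each array of the probe sets of *ckm.L* (3), *atp2a1.S* (2) and *myh8.L* (3) in EF, PNP, LE and whole embryos, with group means as bars and the background ceiling as a grey band. LE is near the band in the first 2 *ckm.L* probe sets and at 7.94 to 8.34 in the third, and the second *atp2a1.S* probe set is nearly level across groups.

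The regions were also compared directly. Between EF and PNP, 9 of the 66 striated probe sets were lower in EF (13.6%) and 0 higher, against 9.73% and 13.8% of all tested. At an unadjusted p under 0.05, 1 was higher in EF than in PNP, a probe set of *myh6.S*, which passed the adjustment without EF replicate 2 or PNP replicate 2, and the methods' t-test after Benjamini-Hochberg called 1, *tnnc2.S*. EF exceeded LE for 7 striated probe sets and was below it for 1, the third *ckm.L* set, or 10.6% and 1.52% beside 14.1% and 10.7% of all tested. The 7 were 3 of *myl1*, *mylpf.L*, *tnnt3.S*, *atp2a1.S* and 1 probe set of *myh6.S*. PNP exceeded LE for 14 (21.2%) and was below it for the same *ckm.L* probe set (1.52%), against 13% and 12.6% of all tested.

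Of the 66 striated probe sets, 18 (27.3%) were lower than whole embryos in both EF and LE, beside 1.77% of all tested. Of the 18, 10 were also lower in PNP than in whole embryos (55.6%), beside 40.5% of the 274 such probe sets among all tested. EF was lower than PNP for 7 of the 8 that were not lower in PNP and for 1 of the 10 that were, or 87.5% and 10%, beside 90.2% and 7.21% over all tested, so this split was near that of all probe sets chosen in the same way. LE had the lowest mean for 16 of the 18, and whole embryos the highest for 15. By the selection only PNP could have a mean above that of whole embryos, and neither count was made over all tested. These 18 were selected by comparisons that share the same 3 whole-embryo arrays, so the counts are a description.

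The replicates within a group also had an order over the striated genes. Whole-embryo replicate 2 had the highest signal of the 3 whole-embryo arrays for 45 of the 66 striated probe sets (68.2%), beside 33.4% of all tested. The highest EF array was replicate 2 for 42 (63.6% against 35.2% of all tested) and the highest PNP array was replicate 3 for 37 (56.1% against 40% of all tested), whereas in LE no array was highest for more than 27. Mean signals over the 66 were 3.16, 3.72 and 3.34 on the whole-embryo arrays. EF replicate 2, PNP replicate 3 and whole-embryo replicate 2 were also left out together. The striated probe sets called were then 21 in EF, 20 in PNP and 20 in LE against whole embryos, beside 24, 17 and 20 with all arrays. The share of all tested was not counted under that setting.

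Many striated genes lay near background everywhere. For 15 of the 37 striated genes no probe set was above the ceiling on all arrays of any group, and no signal of theirs exceeded 2.64. They were *actn2*, *myoz1*, *myoz2*, *cacna1s*, *casq1*, *chrnb1*, *chrne*, *mybpc3*, *myh15*, *myh3*, *myl4*, *acta1*, *tmod4*, *tnni3* and *tnnt2*, and none was called in a comparison. *tnni3* and *tnnt2* encode the cardiac troponins I and T. *acta1* was read by 1 probe set, while the middle control probe set of the muscle actin a1Act, outside the rule, had means of 8.59 in whole embryos and 8.73 in PNP.

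Of the 37 members outside the striated forms, 12 were lower in EF than in whole embryos (32.4%) and 0 higher, 9 were lower in PNP (24.3%) and 3 higher (8.11%), and 4 were lower in LE (10.8%) and 2 higher (5.41%), *actn1.L* and *myl9.L*. At an unadjusted p under 0.05, EF exceeded whole embryos for 2, and 1 passed the adjustment under each of 6 other settings, array weights among them. The shares of all tested probe sets for these comparisons are given above. Between regions, EF was higher than PNP for 3 (8.11%) and lower for 5 (13.5%), against 13.8% and 9.73% of all tested. EF was higher than LE for 1 (2.7%) and lower for 6 (16.2%), against 14.1% and 10.7%. PNP was higher than LE for 8 (21.6%) and lower for 7 (18.9%), against 13% and 12.6%.

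*actn1*, a non-muscle alpha-actinin that bundles actin at adhesions, was highest in LE and lowest in PNP for both copies. *actn1.L* read 7.17, 7.32 and 7.17 in LE, 6.37, 6.40 and 6.39 in whole embryos, 5.63, 5.15 and 4.81 in EF and 3.37, 3.08 and 3.27 in PNP. The 4 groups did not overlap. LE was 1.78-fold above whole embryos (adjusted p = 0.0128, lost without LE replicate 2), EF 2.28-fold below (adjusted p = 0.000471) and PNP 8.87-fold below (adjusted p = 8.33e-08), and LE exceeded PNP by 15.8-fold. *actn1.S* had its group means in the same order, with PNP 4.66-fold below whole embryos and LE 0.66 above it on the log2 scale (adjusted p = 0.0565).

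*myl9.L*, a regulatory light chain of smooth muscle and non-muscle myosin, read 7.3, 7.65 and 7.43 in LE, 6.73, 6.79 and 6.37 in whole embryos, 6.96, 6.49 and 6.42 in PNP and 4.33, 4.41 and 4.68 in EF. PNP overlapped whole embryos, LE was above both and EF below all. EF was 4.45-fold below whole embryos (adjusted p = 5.38e-06) and LE 1.78-fold above it (adjusted p = 0.0134, lost without LE replicate 2). The other copy, *myl9.S*, had signals of 2.39 to 4.01 and passed in no comparison. *myl6.S*, the essential light chain of the same myosins, read 3.89, 4.39 and 4.09 in EF, 5.60, 5.22 and 5.42 in PNP, 6.60, 6.79 and 6.31 in LE and 6.71, 6.77 and 6.0 in whole embryos. LE and whole embryos overlapped, PNP lay below them and EF lowest, 5.19-fold below whole embryos (adjusted p = 1.17e-05).

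*ckmt1b*, the ubiquitous mitochondrial creatine kinase, was high in whole embryos and LE. *ckmt1b.S* read 8.44, 9.11 and 7.64 in whole embryos, 6.94, 7.39 and 7.43 in LE, 4.35, 4.07 and 4.16 in EF and 2.91, 2.95 and 4.17 in PNP. EF and PNP overlapped, LE was above both, and whole embryos was above LE on every array. EF was 18.4-fold and PNP 33.2-fold below whole embryos (adjusted p = 8.58e-06 and 8.2e-07), and LE minus whole embryos was -1.14 (adjusted p = 0.0767). *ckmt1b.L* was at least 2.83-fold lower in EF (adjusted p = 0.0253, lost without EF replicate 1 or 3) and at least 2.69-fold lower in PNP (adjusted p = 0.0137).

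Non-muscle myosin II moves the actin cortex, and actin-binding proteins bundle and cap its filaments. *myh10.S*, non-muscle myosin IIB, read 5.44, 5.62 and 5.25 in LE and 5.90 to 6.93 in the other groups, 2.34-fold lower in LE than in whole embryos (adjusted p = 0.00681) and 1.93-fold lower than in EF. A second *myh10.S* probe set had PNP 1.67-fold above whole embryos (adjusted p = 0.0108). *myh9.L*, non-muscle myosin IIA, had PNP 1.82-fold below whole embryos (adjusted p = 0.00104). *actn4.S* had EF 1.85-fold and LE 1.63-fold below whole embryos, the latter call lost without any of 4 arrays, and *tmod3.S*, which caps actin filaments, was 2.51-fold lower in PNP. *myl12b.L*, a regulatory light chain of non-muscle myosin, has 4 probe sets. The one with the highest signals ran from 8.71 to 9.72 over all arrays and passed in no comparison. Another read 3.61, 3.68 and 4.79 in PNP and 2.84, 3.18 and 3.04 in whole embryos, 2.01-fold higher in PNP (adjusted p = 0.0193, lost without whole-embryo replicate 1). In a dimmer one EF exceeded PNP, where it stayed under the ceiling, by at least 1.23-fold (adjusted p = 0.0458, lost without any 1 of 9 arrays). The fourth passed in no comparison. Of the 7 channel and neuronal receptor probe sets 1, of *cacnb3.S*, was called, higher in PNP than in LE at signals of 2.97 or lower. This is 14.3%, near the 13% of all tested. It read 2.20, 2.97 and 2.13 in PNP, above the ceiling on replicate 2 alone, and was under the ceiling on all LE arrays. *myh9*, *myl12b*, *cacnb3* and *ldb3* were named after their values were seen.

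**Figure D4:**
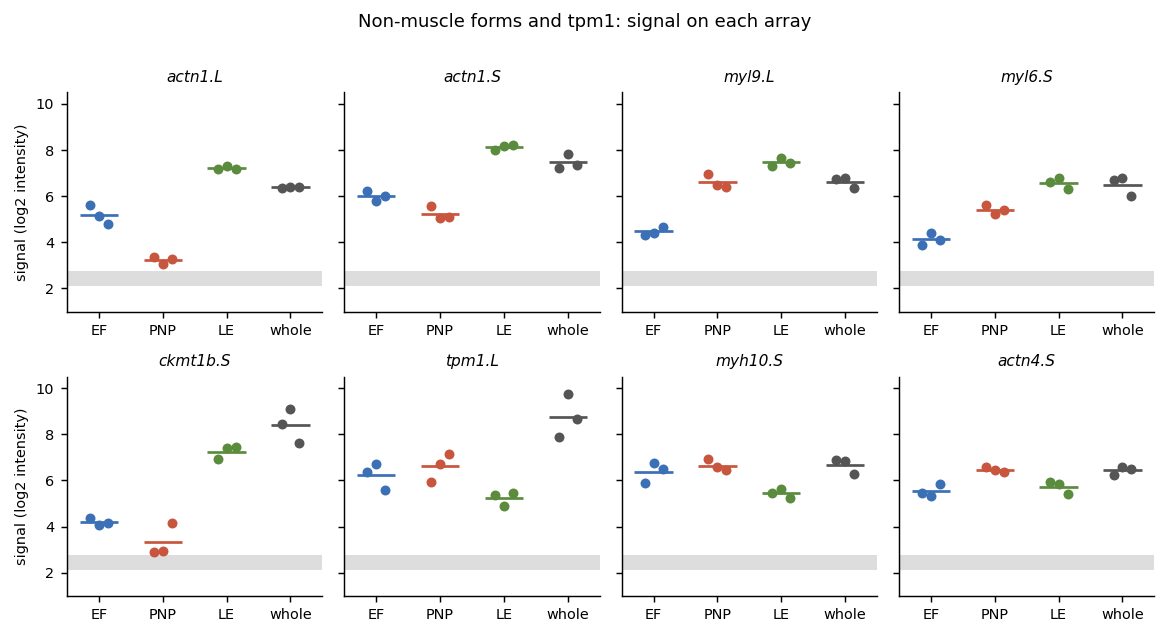
Signal (log2 intensity, y axis) of 7 non-muscle or smooth muscle probe sets and *tpm1.L* on each array, by group, with means as bars and the background ceiling as a grey band. *actn1.L* and *actn1.S* are highest in LE and lowest in PNP, *myl9.L* and *myl6.S* lowest in EF, and *tpm1.L* highest in whole embryos.

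Epidermal markers, as a sum over 8 genes, moved with several of these genes: their linear signal was 6730 to 7890 in LE, 6680 to 7570 in whole embryos, 1390 to 1600 in EF and 87.7 to 114 in PNP, and *krt12.4*, *krt12.5* and *itln1* were above the ceiling on all arrays of every group. *actn1*, *myl6* and *ckmt1b* were likewise higher in LE and whole embryos than in EF and PNP. Between EF and PNP they did not all follow the epidermal sum, which was higher in EF. *actn1* was higher in EF for both copies, *ckmt1b.S* overlapped, and *myl6.S* was lower in EF (mean 4.12) than in PNP (5.41). *myl9.L* did not follow the sum either, with means of 6.62 in PNP, 6.63 in whole embryos and 4.48 in EF. Endoderm markers moved the same way as a sum, with a linear signal over 9 genes of 1070 to 1270 in LE, 1060 to 1310 in whole embryos, 302 to 417 in EF and 212 to 350 in PNP, and 8, 8, 7 and 2 of the 9 above the ceiling on all arrays of these groups. Not every listed gene moved this way. The epidermal list gene *ag1* was higher in EF than in LE (8.76 against 6.87). Among the endoderm genes *foxa1* had its highest mean in PNP, 4.52 against 4.20 in whole embryos and 3.89 in LE. *tp63*, *cer1* and *mixer* did not differ between LE and EF or PNP at the threshold. The part of epidermal or endodermal cells in the values of *actn1*, *myl6* and *ckmt1b* was not tested.

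Mef2 proteins switch on muscle genes together with MyoD. *mef2d.L* read 7.38, 7.47 and 7.50 in PNP, 6.82, 6.69 and 6.69 in whole embryos, 3.85, 4.99 and 3.99 in EF and 4.04, 4.14 and 4.57 in LE. PNP was above whole embryos on every array, though its difference of 0.72 missed the threshold (adjusted p = 0.0558), and EF and LE overlapped 5.49-fold and 5.6-fold below whole embryos. *mef2d.S* read 3.71, 4.30 and 4.36 in PNP and 2.55, 2.54 and 2.63 in whole embryos, 2.93-fold higher in PNP (adjusted p = 2.92e-05). *mef2a* stayed at 2.65 or lower, and *mef2c* had no probe set in the annotation under a single symbol.

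Other genes of the muscle lineage gave the setting for these values. Of 16 measured genes on a list of myogenic and paraxial regulators, EF was below whole embryos for 8 and LE for 6, while PNP was above them for 5 and below for 2. Over all tested probe sets EF was below for 10.6% and LE for 5.4%, and PNP above for 10.2% and below for 12.1%. *myod1* was at 8.94 in PNP, 7.60 in whole embryos, 4.55 in EF and 3.87 in LE, and *myf5* at 8.89, 6.76, 2.52 and 2.50. In PNP both exceeded the whole-embryo level, by 2.52-fold and 4.37-fold (adjusted p = 0.00159 and 2.35e-06). *tbx6* and *msgn1*, T-box and bHLH factors of the presomitic mesoderm, were also higher in PNP, while *myog* and *myf6*, which act later in muscle, stayed at 2.43 or lower in group mean.

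**Figure D5:**
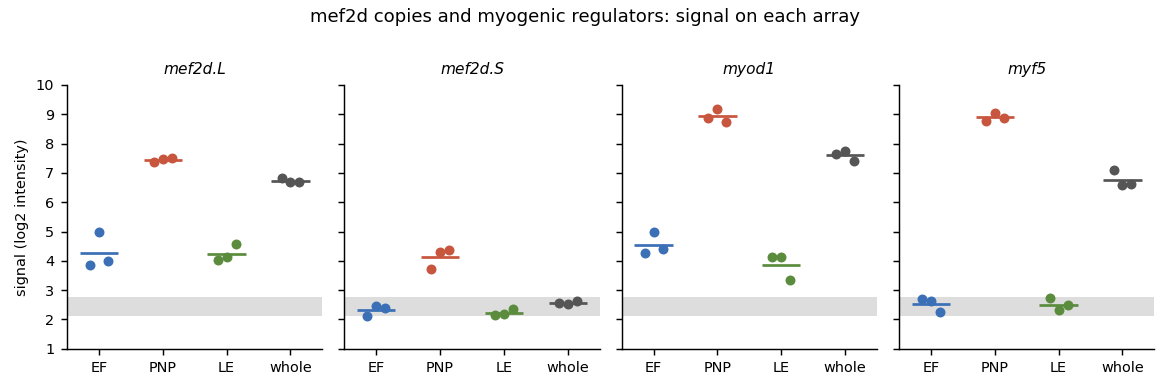
Signal (log2 intensity, y axis) of *mef2d.L*, *mef2d.S*, *myod1* and *myf5* on each array, by group, with means as bars and the background ceiling as a grey band. PNP arrays are above whole embryos in all 4 panels, and EF and LE lie below whole embryos for *mef2d.L*, *myod1* and *myf5*.

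Of 28 measured genes on a list of other muscle genes, 8 were lower in EF than in whole embryos, 6 in LE and 1 in PNP, where 3 were higher, and most of the others lay near background. Among all tested probe sets 10.6%, 5.4% and 12.1% were lower in EF, LE and PNP, and 10.2% were higher in PNP. The 3 higher in PNP are thus near the share of all tested. *unc45b*, a chaperone of muscle myosin, was at 6.48 in whole embryos, 6.39 in PNP, 3.90 in EF and 2.93 in LE, and *srl*, a protein of the sarcoplasmic reticulum, at 6.38, 5.96, 2.63 and 2.21. Both were lower in EF and LE and neither passed in PNP. *pygm*, the muscle glycogen phosphorylase, was at 9.30 in PNP and 8.10 in whole embryos, 2.31-fold higher (adjusted p = 0.0173).

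By Pearson correlation over the 12 arrays with the mean log2 signal of 11 thick- and thin-filament genes, the probe sets most like them among 7507 others were led by *smyd1.L* (r = 0.986), a methyltransferase needed for sarcomere assembly. The rest of the 10 nearest were *nexn.S* (0.960), *fam110d.L* (0.937), *unc45b.S* (0.936), *srl.L* (0.927) and 5 probe sets of genes with provisional names, at 0.96 to 0.97. Of the 11 reference genes, *myh6*, *myl3* and *mylc2a* themselves ran at -0.465, -0.1 and -0.32 against that mean, and *tnnc1* and *tnni1* at 0.166 and 0.292. The others ran at 0.737 to 0.986. The 12 arrays fall into 4 groups and share a normalization, so these values describe the likeness and carry no test.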

How the data were processed

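RNA of EF, PNP, LE and whole embryos was hybridised to 12 1-colour Affymetrix arrays, 3 per group, with groups and replicate numbers taken from the sample labels. The deposited values are linear intensity per probe set after RMA (robust multi-array averaging) by the authors. RMA adjusts the arrays to one another, so only relative differences can be read, and precision is limited by the number of arrays. The median log2 signal still ran from 3.09 on PNP replicate 2 to 3.38 on whole-embryo replicate 2. Of 15611 probe sets, 120 controls were left out of the test. The rest were taken to log2 with no offset and fitted with limma 3.58.1 in R 4.3.3 (lmFit and eBayes over all 12 arrays), the 6 differences between groups being tested with Benjamini-Hochberg adjustment over 15491 probe sets and called at an adjusted p under 0.05. The fit was also run on simulated data with independent normal noise and known changes between EF and whole embryos. Only probe sets above the median whole-embryo signal were changed. The simulation therefore says nothing of changes in dim probe sets, where many members lie. Probe sets were named through the platform annotation: 9304 had 1 symbol, 195 several and 5992 none. All 103 members matched the RefSeq gene table of assembly 10.1 under the same symbol.

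For naming, each gene was represented by its probe set with the highest mean. Every striated gene called in any comparison was named, with the 8 other genes of largest called difference and the *mef2* genes. Where 1 group lay under the background ceiling on every array, a fold is given as at least that against the ceiling. Intervals are 95%. Likeness was Pearson's r over the arrays. The members, gene lists and roles were chosen with earlier results of these data known. Alternatives were Student's t-test, an offset, a filter on dim probe sets, quantile normalization, median centring, a trend, array weights, fits of only the groups compared, a replicate block, 1 probe set per gene, probe sets without shared-sequence suffixes, a 2-fold limit and leaving out each array. The study's supplement used that t-test to set cells from another part of the study against each tissue, not for the comparisons made here. Replicates came from separate collections per the study's methods. No sequence was used here.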

Additional observations from a re-analysis of the deposited data

Results flagged for a closer look

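*actn1.L* was lower than whole embryos in EF and PNP and higher in LE, and the direct differences were -2.02 for EF minus LE and -3.98 for PNP minus LE on the log2 scale (limma adjusted p = 4.47e-06 and 7.03e-09). *myl9.L* was lower than whole embryos in EF and higher in LE, with EF minus LE at -2.98 (adjusted p = 2.41e-07). All were looked at again because regions lay on opposite sides of whole embryos.

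Several probe sets outside the rule carried signal of muscle genes, or of a non-muscle relative, above the background ceiling. The middle control probe set of the muscle actin a1Act had a mean of 8.59 in whole embryos, 8.73 in PNP and 3.42 in LE, and that of a3Act 5.71, 3.01 and 2.07. A probe set of both *myl1* copies had 8.55 in whole embryos, 8.11 in PNP and 2.56 in LE. That of both *tpm4* copies, a tropomyosin counted here with the non-muscle forms, had 6.77, 7.72 and 7.09. The desmin genes *des.1.S* and *des.1.L*, which encode the muscle intermediate filament, had 3.72 and 5.10 in whole embryos and 3.12 and 2.56 in PNP. In EF the means were 5.25 for a1Act, 2.76 for a3Act, 4.67 for *myl1* and 6.39 for *tpm4*. Those of *des.1.S* and *des.1.L* in EF were 2.23 and 3.46.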

How the results depend on the processing

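Counts of called probe sets moved most under Student's t-test after Benjamini-Hochberg. It called 3, 1 and 3 striated probe sets in EF, PNP and LE against whole embryos (24, 17 and 20 by limma), 5 when EF was set against PNP (9) and 3 when EF was set against LE (8). Of the other members it called 4, 6 and 2 against whole embryos (12, 12 and 6), 5 for EF against PNP (8) and 9 for PNP against LE (15). Without probe sets of shared-sequence suffix the striated counts were 14, 10 and 11 against whole embryos and 5 for EF against LE. With 1 probe set per gene they were 15, 9 and 13 against whole embryos, 4 for EF against LE and 9 for PNP against LE (15), and those of the other members were 6 for PNP against whole embryos and 5 for EF against PNP. An offset of 16 left 3 striated calls for EF against LE. A 2-fold limit left 3 other members in LE against whole embryos, 5 for EF against PNP and 9 for PNP against LE. Leaving out 1 array gave 19 to 25, 14 to 21 and 17 to 21 striated calls against whole embryos, 6 to 10 for EF against PNP, 7 to 10 for EF against LE and 13 to 17 for PNP against LE, and for the other members 9 to 13, 12 to 14, 3 to 8 (3 without LE replicate 2), 6 to 12, 6 to 9 and 12 to 16. The share of all tested probe sets called was not counted under these alternatives. A change particular to the members therefore cannot be told from one over the whole array. Causes were not tested. With the replicate number as a block, striated calls were 23, 18, 18, 8, 8 and 14 and the others 12, 12, 5, 8, 7 and 15. Same-numbered arrays correlated at -0.172 to 0.208, over 0.1 for 3 of 18 pairs. Low correlations cannot exclude a small shared effect, and whether a shared number marks a shared collection was not tested. Leaving out EF replicate 2, PNP replicate 3 and whole-embryo replicate 2 together was chosen after seeing the data. Of 141 called differences of the named genes, none of 3100 values under these alternatives reversed and 281 missed the threshold. Of the 281, 87 were under Student's t-test. The alternatives reuse the same arrays on differences already called, so the lack of reversals is weak evidence. Median centring moved the median PNP minus whole embryos over all probe sets from 0.07 to 0.22. A planned motif search was not run. For 15 striated genes no signal exceeded 2.64 on the log2 scale, near background.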
